A study of Mus musculus with 6 samples.

Results

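Complex I subunits encoded in the nucleus were examined in the hindlimb gastrocnemius (GAS) muscles of young Kvβ2 KO mice and WT mice. The members were every gene of the expression table whose symbol is Nduf followed by a, b, c, s or v and a number, without pseudogenes, which gave 37 of 37979 genes. The rule used the symbol alone and no measured value, but it was chosen with earlier results of these data known. The KO mice lack Kvβ2, the auxiliary potassium channel subunit encoded by *Kcnab2*, and 3 KO and 3 WT mice, numbered 1, 7 and 8 in each genotype, gave 1 library each. The study used male mice of 20 weeks and the mice of both genotypes were untreated. The labels give the WT mice no deletion and name no strain, batch or litter. They describe the deletion only as a KO, with no promoter or tissue that limits it, so effects in other tissues cannot be told apart from effects in muscle.

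Complex I (NADH:ubiquinone oxidoreductase) is the entry point for electrons from NADH into the respiratory chain. Its matrix arm oxidizes NADH on a flavin, passes the electrons along iron-sulfur clusters to ubiquinone, and its membrane arm pumps protons. A set of core subunits carries out the catalysis, with those of the matrix arm made from nuclear genes and those of the membrane arm from mitochondrial DNA, and the accessory subunits around them stabilize and complete the complex. Muscle fibers that rely on oxidative metabolism hold many mitochondria and much of this enzyme.

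Expression was given by the authors as FPKM, which counts sequenced fragments relative to transcript length and to the size of the library. All 37 members were above 0 in every library and passed the filter of the test, an average of 0.5 FPKM or more, which 12334 genes passed. Of these members, 33 were above 50 FPKM in every library. The depth, estimated from the steps of whole fragments in the low FPKM values, was 14900000 to 19500000 fragments in the KO and 19900000 to 22000000 in the WT libraries. By this estimate every KO library was less deep, but KO replicate 7 and WT replicate 1 lay too close to be ranked with confidence. *Kcnab2* was listed at 0 in KO replicates 1 and 8, was at 0.0151 FPKM in KO replicate 7 and at 0.10 to 0.233 FPKM in the WT libraries. Of 14 skeletal muscle markers, *Myh4* and *Tnnt3* were listed at 0 in all 6 libraries. Whether these zeros come from the muscle or from the quantification was not tested. The other 12 were expressed in each library. The summed level, to which *Myh4* and *Tnnt3* add nothing, was 70850 to 82420 FPKM in KO and 52760 to 75890 FPKM in WT muscle. Differences were tested with limma on log2(FPKM + 0.1) with Benjamini-Hochberg adjustment over all tested genes. The p-values measure the spread between these 3 mice per genotype, and a single gene in this design cannot give an exact permutation p under 0.1. In whole muscle, fewer cells of a type and less RNA per cell cannot be told apart.

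The complex I genes did not move as a block. Of the 37 members, 21 had a log2 fold change above 0 and 16 below 0 in KO against WT muscle, and the median was 0.03, beside 0.01 over all tested genes. The changes were within 0.3 on the log2 scale for 25 members. At an adjusted p under 0.05, 1 member, *Ndufb7*, was higher and 0 were lower in KO muscle, where 0.251% of all tested genes were higher and 0.073% lower. At an unadjusted p under 0.05, 10 members were higher and 2 lower, which is 27.0% and 5.41% of the members beside 15.3% and 10.9% of all tested genes. In 10 members every KO library exceeded every WT library (18.3% of all tested genes), in 7 members every KO library was below every WT library (16.2% of all tested genes), and in the other 20 the genotypes overlapped. The summed FPKM of the 37 genes ranged from 8054 to 8961 in KO and from 8200 to 9360 in WT muscle, so the totals overlapped.

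**Figure D1:**
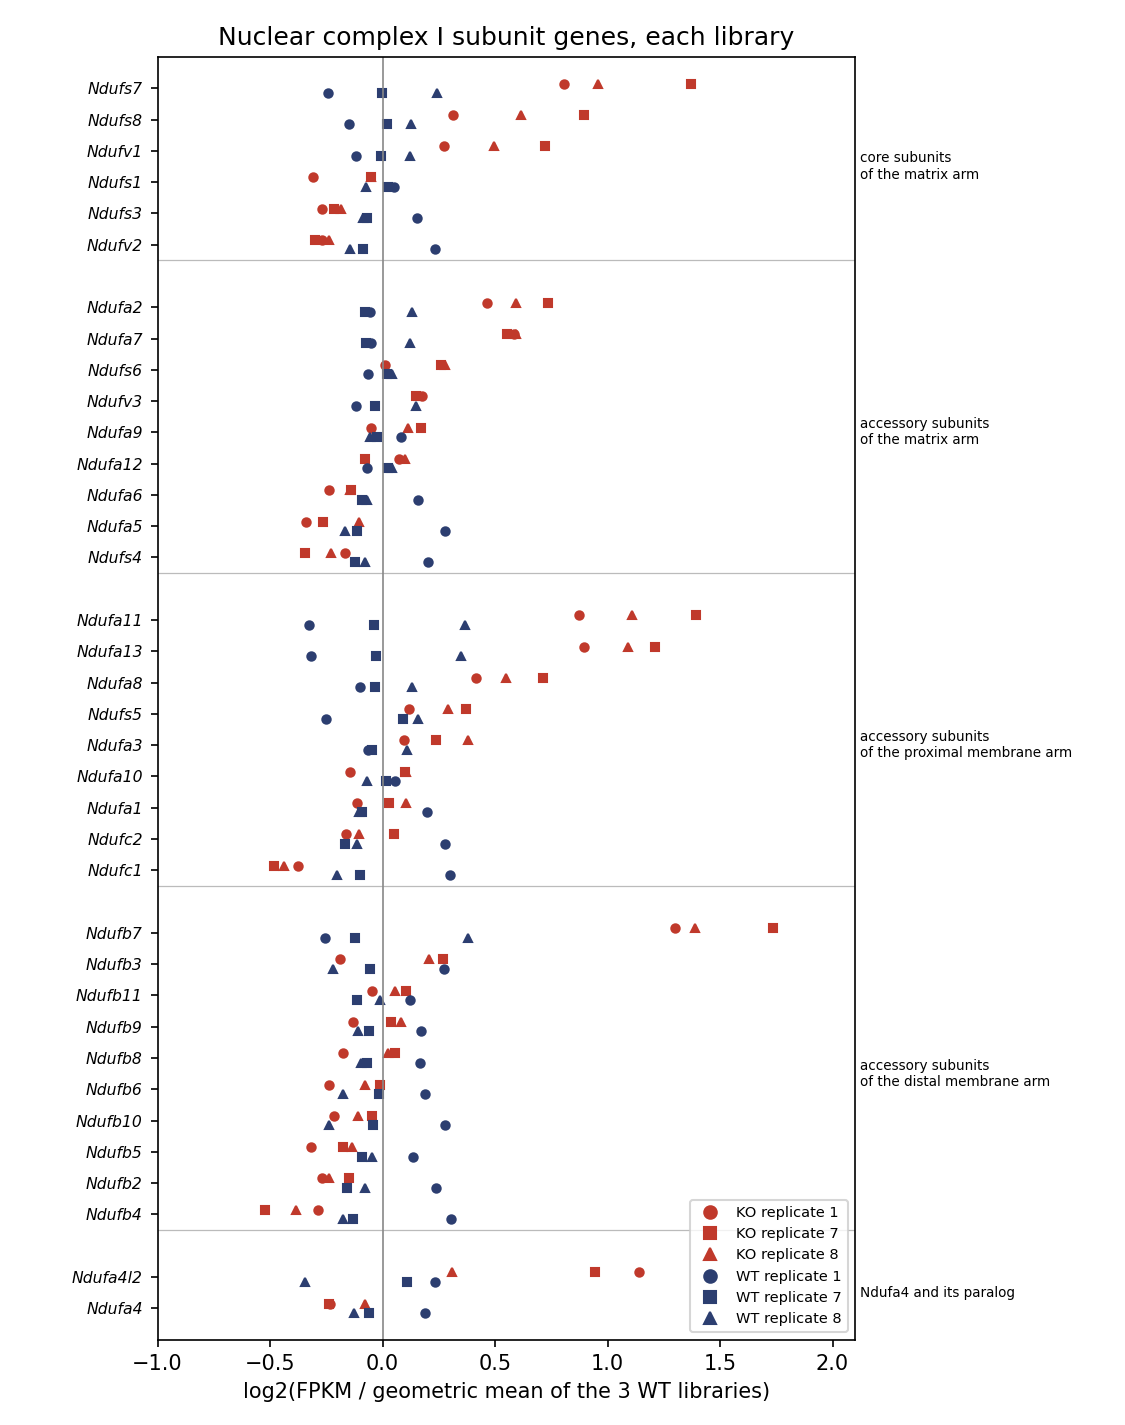
Level of 36 of the 37 members in each library, as the log2 ratio of its FPKM to the geometric mean of the 3 WT libraries, grouped by the place of the subunit in the complex. KO libraries are red and WT libraries blue, with a marker shape for each replicate number. *Ndufb7*, *Ndufa11*, *Ndufa13* and *Ndufs7* stand to the right in all KO libraries, while most members of the distal membrane arm overlap between the genotypes.

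Of the 7 core subunits of the matrix arm, 3 were higher and 0 lower in KO muscle at an unadjusted p under 0.05. Over all tested genes, 15.3% were higher and 10.9% lower at that threshold. *Ndufs7*, which lies beside the ubiquinone site and carries the last iron-sulfur cluster of the chain, was at 120.0, 177 and 133 FPKM in the KO libraries, and at 58.0, 68.5 and 80.9 FPKM in the WT libraries. The libraries of a genotype are given in the order 1, 7 and 8 throughout. The genotypes did not overlap, with a mean of 143 ± 30.0 FPKM in KO against 69.1 ± 11.5 FPKM in WT muscle (SD, n = 3). The log2 fold change was 1.04 (standard error 0.18, limma adjusted p = 0.0667). *Ndufs8*, an iron-sulfur subunit of the same region, was at 59.8, 89.4 and 73.5 FPKM in KO and at 43.4, 48.8 and 52.5 FPKM in WT muscle, again without overlap (log2 fold change 0.61, standard error 0.16, limma adjusted p = 0.0915). *Ndufv1* binds NADH and the flavin, and its KO libraries at 168, 229 and 196 FPKM also lay above its WT libraries at 128, 139 and 151 FPKM (log2 fold change 0.50, standard error 0.14, limma adjusted p = 0.0967). Each of the 3 genes was highest in KO replicate 7 and lowest in WT replicate 1. The adjusted p of each was above 0.05, while the unadjusted p was 0.000577 for *Ndufs7*, 0.00641 for *Ndufs8* and 0.00827 for *Ndufv1*.

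Other core genes differed less. *Ndufv2*, the partner of *Ndufv1* in the NADH-oxidizing tip, was at 328, 322 and 336 FPKM in KO and at 465, 372 and 359 FPKM in WT muscle, with all KO libraries lower (log2 fold change -0.27, standard error 0.13, limma adjusted p = 0.220). *Ndufs3*, a core subunit near the ubiquinone site, was at 203, 211 and 215 FPKM in KO and at 272, 234 and 231 FPKM in WT muscle, also without overlap (log2 fold change -0.22, standard error 0.11, limma adjusted p = 0.227). In both genes WT replicate 1 was the highest library and the KO libraries lay close to each other. *Ndufs1*, the largest core subunit, was at 134, 159.7 and 159.6 FPKM in KO and at 171, 168 and 157 FPKM in WT muscle. Its genotypes overlapped, with a log2 fold change of -0.14. Over the 7 core genes the median log2 fold change was 0.14.

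Among the 9 accessory subunits of the matrix arm, the median log2 fold change was 0.08. At an unadjusted p under 0.05, 2 were higher and 0 lower, beside 15.3% and 10.9% of all tested genes. The pair, chosen for mention after their values were seen, was *Ndufa2*, a small subunit with a thioredoxin-like fold, and *Ndufa7*. *Ndufa2* was at 174, 210.2 and 190.5 FPKM in KO and at 122, 119.8 and 138 FPKM in WT muscle (log2 fold change 0.60, standard error 0.12, limma adjusted p = 0.0700). *Ndufa7* was at 179, 175 and 179.8 FPKM in KO and at 115, 113 and 129.9 FPKM in WT muscle (log2 fold change 0.58, standard error 0.10, limma adjusted p = 0.0667). Neither gene overlapped between the genotypes. At the other end, *Ndufs4*, a subunit of the NADH-oxidizing tip whose loss causes a mitochondrial encephalopathy in mice and humans, was at 105, 92.7 and 100.4 FPKM in KO and at 135, 108 and 112 FPKM in WT muscle (log2 fold change -0.25, standard error 0.12, limma adjusted p = 0.236). *Ndufa5* was at 344, 363 and 405 FPKM in KO and at 529, 403 and 389 FPKM in WT muscle, where the genotypes overlapped (log2 fold change -0.24, standard error 0.15, limma adjusted p = 0.337).

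The accessory subunits of the membrane arm held the largest differences in both directions. *Ndufb7* (ENSMUSG00000033938), a subunit on the intermembrane-space face of the distal arm, was at 115, 155 and 122 FPKM in KO and at 39.0, 42.8 and 60.7 FPKM in WT muscle. The lowest KO library was above the highest WT library, and the mean was 131 ± 21.6 FPKM in KO against 47.5 ± 11.5 FPKM in WT muscle (SD, n = 3), a ratio of 2.75. The log2 fold change was 1.47 (standard error 0.19), and the limma adjusted p of 0.0431 made it the 1 member past the threshold. With limma's array weights, 11 members (29.7%, beside 25.5% of all tested genes) were called in either direction. With single libraries left out, the log2 fold change of *Ndufb7* stayed between 1.34 and 1.66, but among these fits the gene was past the threshold only without WT replicate 8. Over all 23 alternative settings the limma adjusted p ran from 0.00353 to 0.351 and was under 0.05 in 8, with a log2 fold change of 0.89 to 1.66. The 10 genes of the distal arm had a median of -0.07. *Ndufb4*, a subunit of the same part of the arm, was at 129, 109.8 and 121 FPKM in KO and at 195, 144 and 139.7 FPKM in WT muscle, without overlap (log2 fold change -0.40, standard error 0.15, unadjusted p = 0.0322 and adjusted p = 0.158 by limma).

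In the proximal part of the membrane arm, the 9 members had a median log2 fold change of 0.24. At an unadjusted p under 0.05, 3 were higher and 1 lower, beside 15.3% and 10.9% of all tested genes. *Ndufa11*, a membrane subunit needed for a stable complex, was at 18.6, 26.7 and 21.9 FPKM in KO and at 8.10, 9.89 and 13.1 FPKM in WT muscle (log2 fold change 1.12, standard error 0.21, limma adjusted p = 0.0667). *Ndufa13*, which crosses the inner membrane into the matrix arm and is also known as a cell death regulator, was at 119, 148 and 136 FPKM in KO and at 51.2, 62.5 and 81.3 FPKM in WT muscle (log2 fold change 1.07, standard error 0.18, limma adjusted p = 0.0667). Neither gene overlapped between the genotypes, and in both WT replicate 8 was the WT library nearest to the KO libraries. *Ndufa8*, a subunit facing the intermembrane space that was named after its values were seen, was at 146, 180.0 and 161 FPKM in KO and at 102, 107 and 120.5 FPKM in WT muscle (log2 fold change 0.56, standard error 0.12, limma adjusted p = 0.0740). *Ndufc1*, a short membrane subunit, had the largest difference downwards, with 229, 213 and 219.6 FPKM in KO and 366, 277 and 258 FPKM in WT muscle (log2 fold change -0.43, standard error 0.15, unadjusted p = 0.0193 and adjusted p = 0.130 by limma). Its KO libraries differed little among themselves and WT replicate 1 stood well above the other WT libraries.

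**Figure D2:**
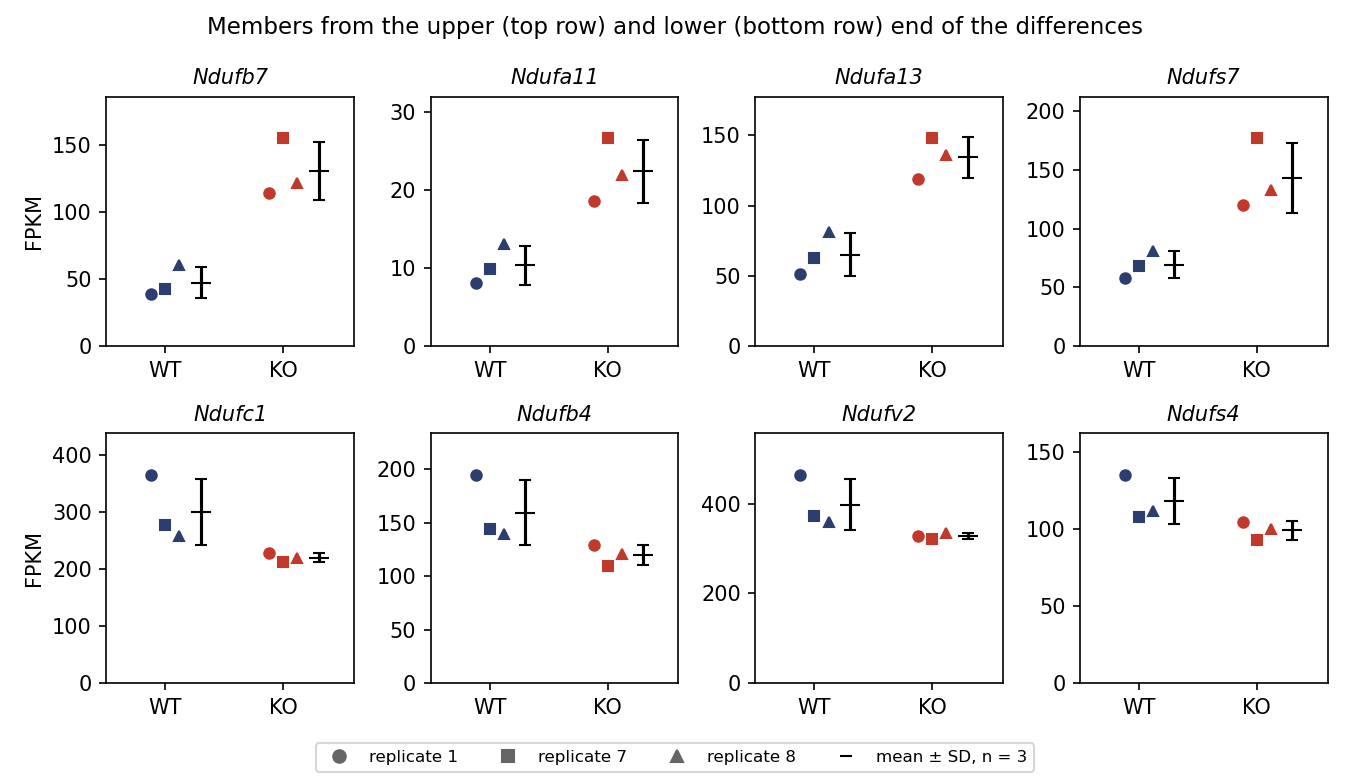
FPKM of 8 members from either end of the differences, with a point for each library and a bar for the mean ± SD of the 3 mice per genotype, all axes from 0. In the top row the KO libraries lie higher without overlap, and in the bottom row lower without overlap, with WT replicate 1 (circle) the highest library of the 4 genes in the bottom row.

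*Ndufa4* and *Ndufa4l2* carry the family name but differ in place and use. *Ndufa4* is now assigned to cytochrome c oxidase, and *Ndufa4l2* is its paralog that responds to low oxygen. *Ndufa4* had the highest level of the members in every library, with 972, 966 and 1080 FPKM in KO and 1300, 1094 and 1043 FPKM in WT muscle, and its genotypes overlapped (log2 fold change -0.18, standard error 0.13, limma adjusted p = 0.383). *Ndufa4l2* had the lowest level, with 4.80, 4.20 and 2.70 FPKM in KO and 2.56, 2.35 and 1.72 FPKM in WT muscle. All its KO libraries were above all its WT libraries (log2 fold change 0.77, standard error 0.25, limma adjusted p = 0.118), but the level rested on an estimated 29 to 63 fragments per library. By this estimate *Ndufa11* rested on 94 to 303 fragments and every other member on 700 or more in each library. The estimate uses the full mean length of a gene's annotated transcripts. It leaves out the 100 to 200 bases that the depth estimate takes off, which makes the numbers too high. Where the protein-coding transcripts are longer than that mean, the numbers can be too low. This holds for *Ndufa4l2* (934 against 768 bases) and *Ndufa11* (652 against 583 bases). For *Ndufb7* the mean is 2529 bases, against 623 for its protein-coding transcript. By the latter length its number would be lower and could fall under 700.

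The log2 fold change fell with the mean FPKM of a member (Spearman's rho = -0.55 across the 37 genes, which share the 6 libraries), and the levels lay closer together in KO muscle. Across the 36 members other than *Ndufa4l2*, the standard deviation of log2 FPKM was 1.01, 0.941 and 1.01 in the KO and 1.38, 1.24 and 1.15 in the WT libraries, in the order of their numbers. All KO libraries were below all WT libraries in this spread (two-sided exact permutation p = 0.1, the smallest that 3 against 3 can give). Pairs of subunits that sit in 1 complex together showed the same shift in their ratios of FPKM. *Ndufv1* to *Ndufv2* was 0.512, 0.712 and 0.584 in KO and 0.275, 0.372 and 0.422 in WT muscle. *Ndufs7* to *Ndufs3* was 0.590, 0.841 and 0.618 in KO and 0.213, 0.293 and 0.351 in WT muscle. *Ndufb7* to *Ndufb4* was 0.888, 1.42 and 1.01 in KO and 0.20, 0.298 and 0.434 in WT muscle. These pairs were picked after their values were seen, and the spread and the ratios are a description. Neither was recomputed after the correction for GC content described below. The part of GC content in them was not tested.

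The differences followed the base composition of the transcripts. The GC content of a gene is here the length-weighted mean over its annotated transcripts. Across the 37 members, which are not independent replicates and share the 6 libraries, the log2 fold change rose with GC content (Spearman's rho = 0.77, Pearson's r = 0.75), and across the 11985 tested genes of known GC content the same was seen (rho = 0.70). The 6 members under 45% GC had a median log2 fold change of -0.22, where all tested genes of that class had -0.30, and the 9 members of 45% to 50% had -0.17, beside -0.11. The 15 members of 50% to 55% had 0.16, beside 0.14, and the 6 members of 55% to 60% had 0.69, beside 0.45. The 1 member of 60% or more, *Ndufa13*, had 1.07, beside 0.68. All 10 members that were higher at an unadjusted p under 0.05 had at least 50% GC, and both lower members, *Ndufc1* and *Ndufb4*, had less than 50%. The trend was also split by library, as deviations from a mean that holds both genotypes. Opposite signs in KO and WT therefore restate the contrast above in part and are no separate evidence. Against the mean of the 6 libraries, the correlation of a gene's deviation with its GC content over all tested genes was 0.385, 0.566 and 0.469 in the KO and -0.605, -0.449 and -0.302 in the WT libraries. The 7 members of 55% GC or more deviated by a median of 0.29, 0.59 and 0.31 on the log2 scale in the KO and by -0.45, -0.28 and -0.18 in the WT libraries. Genotype and this trend cannot be told apart in these libraries.

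The coding sequences show the same composition. The first 240 bases, 80 codons, are printed for 3 of the 4 members with the largest difference upwards and for 2 of the 5 with the largest difference downwards, picked for their contrast after the values were seen. Capitals mark each G or C at the last base of a codon. The sequences come from GENCODE vM21 on GRCm38 and run 5′ to 3′.
Ndufb7: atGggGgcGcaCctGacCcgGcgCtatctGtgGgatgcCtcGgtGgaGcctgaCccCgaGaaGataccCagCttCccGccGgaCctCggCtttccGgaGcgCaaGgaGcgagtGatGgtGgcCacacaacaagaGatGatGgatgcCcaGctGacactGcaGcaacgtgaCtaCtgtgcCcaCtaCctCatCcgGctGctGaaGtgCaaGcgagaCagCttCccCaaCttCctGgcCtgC
Ndufa13: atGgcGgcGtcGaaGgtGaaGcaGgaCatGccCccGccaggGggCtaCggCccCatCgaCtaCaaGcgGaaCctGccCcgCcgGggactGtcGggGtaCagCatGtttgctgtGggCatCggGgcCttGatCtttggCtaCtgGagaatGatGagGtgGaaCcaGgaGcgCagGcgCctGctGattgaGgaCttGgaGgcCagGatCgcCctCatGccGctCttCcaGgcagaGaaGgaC
Ndufs7: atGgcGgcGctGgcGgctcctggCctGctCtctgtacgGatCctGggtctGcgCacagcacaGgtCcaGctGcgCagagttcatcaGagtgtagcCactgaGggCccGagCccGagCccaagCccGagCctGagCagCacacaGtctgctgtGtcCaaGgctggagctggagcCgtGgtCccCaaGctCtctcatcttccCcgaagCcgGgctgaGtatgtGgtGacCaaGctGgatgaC
Ndufs4: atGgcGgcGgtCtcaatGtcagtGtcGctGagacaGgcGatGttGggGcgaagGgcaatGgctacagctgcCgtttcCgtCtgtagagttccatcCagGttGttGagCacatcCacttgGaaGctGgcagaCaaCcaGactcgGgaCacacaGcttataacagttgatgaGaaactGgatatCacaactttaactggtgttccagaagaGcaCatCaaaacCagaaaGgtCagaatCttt
Ndufv2: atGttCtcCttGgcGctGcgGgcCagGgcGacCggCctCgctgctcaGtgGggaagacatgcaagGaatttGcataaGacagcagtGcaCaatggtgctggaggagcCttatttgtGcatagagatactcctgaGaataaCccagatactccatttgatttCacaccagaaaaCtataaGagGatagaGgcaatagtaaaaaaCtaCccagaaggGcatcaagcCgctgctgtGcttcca
In these stretches G or C closed 65 of 80 codons in *Ndufb7*, 72 in *Ndufa13* and 52 in *Ndufs7*, against 43 in *Ndufs4* and 34 in *Ndufv2*. *Ndufb7* lies on the plus strand of chromosome 8 from 83566671 to 83571626, *Ndufa13* on the minus strand of chromosome 8 from 69894180 to 69902558 and *Ndufs7* on the plus strand of chromosome 10 from 80249121 to 80256794. *Ndufs4* lies on the minus strand of chromosome 13 from 114287795 to 114388258, and *Ndufv2* on the minus strand of chromosome 17 from 66078638 to 66101559. Over whole coding sequences, the 10 members higher at an unadjusted p under 0.05 had a median GC content of 58.6% (range 54.1% to 61.5%) and a median of 69.0% at the last codon position, and the other 27 had 52.3% (range 45.05% to 58.8%) and 60%. The log2 fold change of the 37 members had a Spearman's rho of 0.67 with the GC content at the last codon position and of 0.01 with coding length. The contrast was weaker for *Ndufc1* and *Ndufb4*, the 2 lowest members, with 61.0% and 60% G or C at the last codon position.

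**Figure D3:**
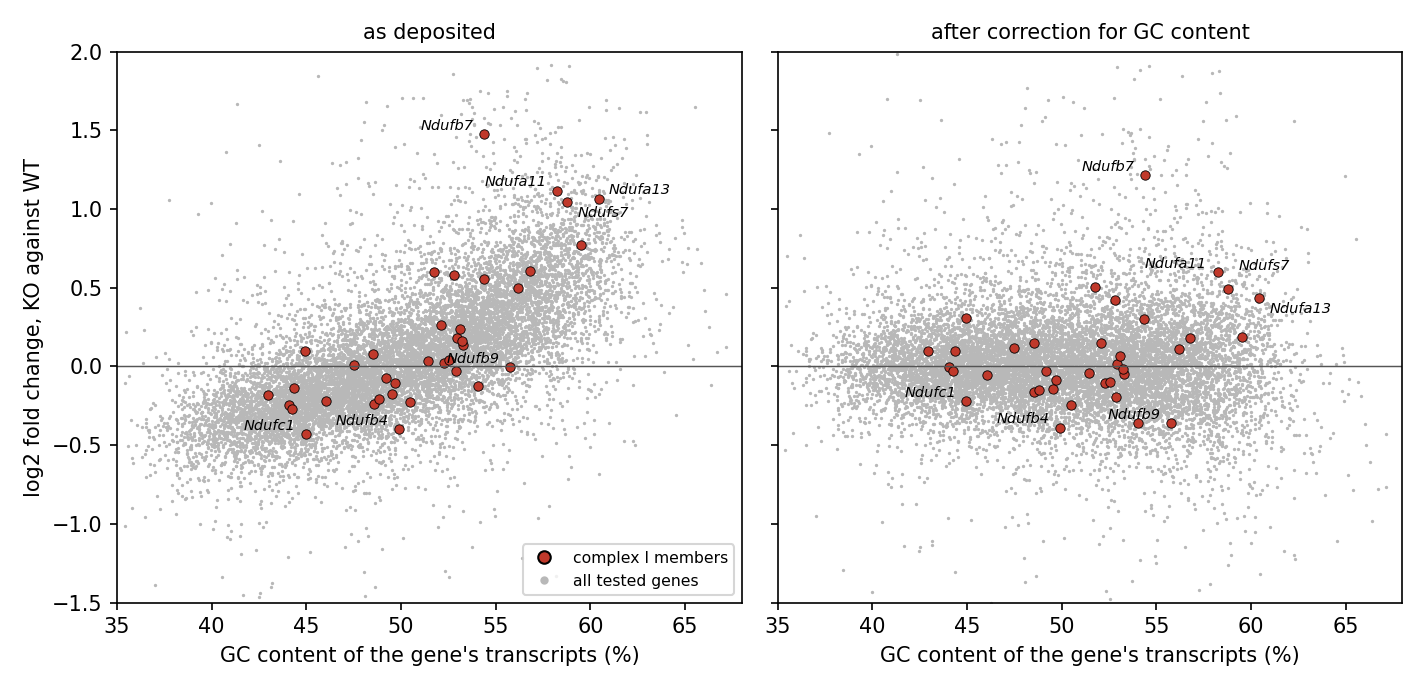
Log2 fold change in KO against WT muscle (y axis) by the GC content of a gene's transcripts in percent (x axis), for all tested genes (grey) and the 37 members (red), with the FPKM as deposited on the left and after the correction for GC content on the right. Genes beyond the axis limits are not drawn. On the left the members climb with GC content together with the other genes, and on the right *Ndufb7* stays above the other members.

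Each library's deviations were then corrected for this trend by a loess curve on GC content, fitted over all genes. The standard deviation of the log2 fold changes over the members fell from 0.463 to 0.312, and their correlation with GC content from 0.77 to 0.31 (Spearman's rho). At an adjusted p under 0.05, 0 members were called in either direction, where 0.0501% of the genes were called higher and 0.0668% lower by limma. At an unadjusted p under 0.05, 7 members were higher (5.72% of all genes of known GC content) and 2 lower (5.47%). The 7, or 18.9% of the members, were *Ndufb7*, *Ndufa11*, *Ndufa13*, *Ndufs7*, *Ndufa2*, *Ndufa7* and *Ndufa8*. *Ndufb7* kept a log2 fold change of 1.21 (standard error 0.16, limma adjusted p = 0.0806), *Ndufa11* was at 0.60, *Ndufa2* at 0.50, *Ndufs7* at 0.49, *Ndufa13* at 0.43, *Ndufa7* at 0.42 and *Ndufa8* at 0.30. *Ndufs8*, *Ndufa4l2* and *Ndufv1* dropped to 0.18, 0.19 and 0.11. Of the lower members, *Ndufb4* hardly moved, from -0.40 to -0.39, while *Ndufc1* went from -0.43 to -0.22. *Ndufb9*, the other lower member after the correction and named for that, was at -0.36 and had been near 0 before it.

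The size of the correction for *Ndufb7* depended on which of its transcripts were counted. Its GC content of 54.4% over all annotated transcripts includes a long transcript that retains an intron, and its protein-coding transcript alone is at 59.7%. With GC content taken from protein-coding transcripts, a choice made after seeing the data, the log2 fold change of *Ndufb7* was 0.89 (limma adjusted p = 0.126). The same 7 members were then higher at an unadjusted p under 0.05 (5.75% of all genes) and 3 lower (5.45%), namely *Ndufb4*, *Ndufs3* and, outside the rule for names, *Ndufb10*.

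**Figure D4:**
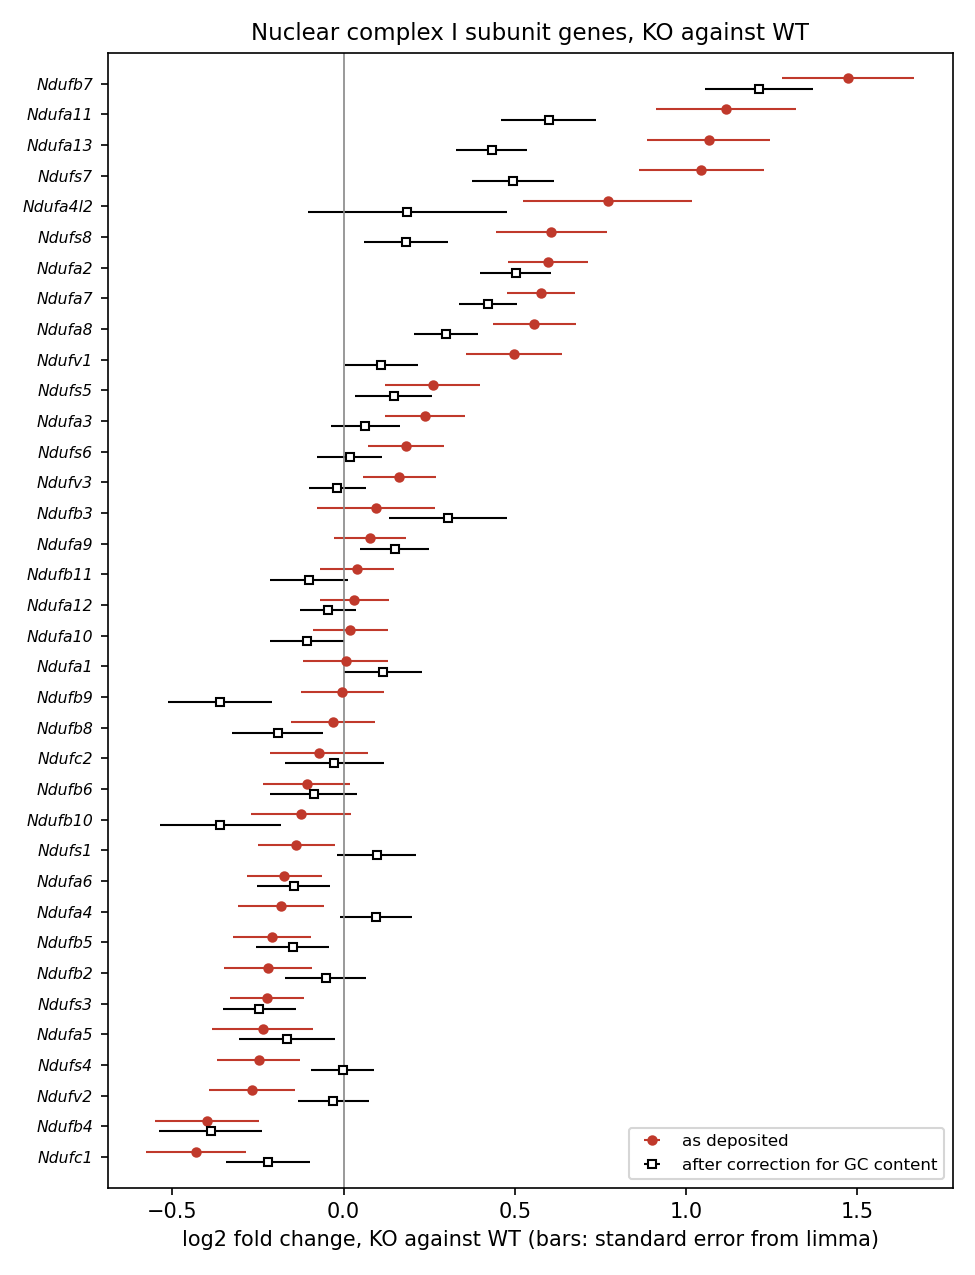
Log2 fold change of 36 of the 37 members in KO against WT muscle, with bars for the standard error from limma, as deposited (red circles) and after the correction for GC content (open squares). The circles run from -0.43 for *Ndufc1* to 1.47 for *Ndufb7*, and the squares gather closer to 0 for most members.

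Some members share exons with other genes, and the strand setting of the authors' counting is not given in the sources used here. *Ndufa13* shares 375 of its 1251 exonic bases with *Tssk6* on the opposite strand, at a mean of 0.00727 FPKM, *Ndufa11* shares 70 with *Vmac* at 1.62 FPKM and *Ndufa2* shares 66 with *Tmco6* at 2.50 FPKM. *Ndufa4l2* and *Ndufs1* share exonic bases with partners above their own level, 32 of 1095 with *Shmt2* at 6.17 FPKM against 3.06 FPKM for *Ndufa4l2*, and 9 of 8086 with *Eef1b2* at 182 FPKM against 158 FPKM for *Ndufs1*, both on the opposite strand. *Ndufb6* shares 257 of its 659 exonic bases with *Smim27* on the opposite strand, at 5.86 FPKM. *Ndufb5* shares 616 of 4995 with *Mrpl47*, also on the opposite strand, at 24.2 FPKM. On the same strand, *Ndufb9* shares 201 bases with *Gm49356* and *Ndufb2* shares 145 with *Gm42420*, partners for which no FPKM was found. *Ndufb8* shares 134 with *Gm20538*, at a mean of 0 FPKM. The values of *Ndufb9*, *Ndufb2* and *Ndufb8* are uncertain because of the shared bases, by an amount that was not tested.

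The start regions of the members hold sites for known regulators of respiratory genes in differing mixtures. Windows of 300 bases around the annotated RefSeq start were taken from RefSeq on GRCm38.p6 for 32 of the 37 members and searched on both strands. The NRF1 motif was in 7 members (21.9%, beside 5.19% of 27025 genes), and the YY1 motif in 8 (25%, beside 3.26%). The ETS motif, CCGGAAG, was in 4 members (12.5%, beside 9.93%), the GC box, GGGGCGGGG, in 5 (15.6%, beside 12.9%), and the estrogen-related receptor motif, TNAAGGTCA, in 1 (3.12%, beside 1.43%). Of the 8 members with a window among those higher at an unadjusted p under 0.05, 2 held the NRF1, 2 the YY1, 2 the ETS and 0 the estrogen-related receptor motif. Windows of *Ndufb7* (chr8:83566508-83566807, plus strand) and *Ndufs7* (chr10:80249199-80249498, plus strand) are printed as the called member and the core subunit with the largest difference, with the ETS match of the former and the YY1 match of the latter in capitals.
Ndufb7 promoter: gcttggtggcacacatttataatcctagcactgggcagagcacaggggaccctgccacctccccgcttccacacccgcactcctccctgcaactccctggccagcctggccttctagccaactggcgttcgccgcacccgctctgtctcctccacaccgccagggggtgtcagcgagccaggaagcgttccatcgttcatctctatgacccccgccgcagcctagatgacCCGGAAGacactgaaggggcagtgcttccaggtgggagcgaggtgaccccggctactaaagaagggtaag
Ndufs7 promoter: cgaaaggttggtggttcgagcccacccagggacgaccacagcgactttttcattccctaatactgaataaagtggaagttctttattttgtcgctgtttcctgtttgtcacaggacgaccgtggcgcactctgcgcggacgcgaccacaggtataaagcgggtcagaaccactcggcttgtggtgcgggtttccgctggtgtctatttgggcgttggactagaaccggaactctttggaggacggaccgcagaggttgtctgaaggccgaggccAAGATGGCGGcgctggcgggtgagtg
The RefSeq start of *Ndufs7* lies downstream of the start that GENCODE gives it, so its whole window is inside the gene as placed above, and the YY1 match holds the start codon of the coding sequence printed above. The window of *Ndufb7* begins 163 bases before its GENCODE start. Its ETS match lies downstream of that start, also inside the gene as placed above. A match describes the letters of the window only. Of the regulators themselves, *Esrra*, an orphan nuclear receptor that acts on respiratory genes with PGC-1 coactivators, was at 17.7, 21.8 and 18.5 FPKM in KO and at 6.25, 7.78 and 9.68 FPKM in WT muscle (log2 fold change 1.30, standard error 0.17, limma adjusted p = 0.0435). Its transcripts have 58.4% GC, and after the correction its log2 fold change was 0.77. Of 12 regulators of mitochondrial biogenesis, 2 were higher and 4 lower at an unadjusted p under 0.05, beside 15.3% and 10.9% of all tested genes. After the correction for GC content, 2 were higher and 1 lower.

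Other genes needed for complex I were set beside the members. *Ndufab1*, the acyl carrier protein that the symbol rule leaves out, had a log2 fold change of -0.17 with overlapping genotypes. Of 21 assembly factors, which build the complex without staying in it, 14 were found in the table by symbol and tested, and 0 were called at an adjusted p under 0.05. At an unadjusted p under 0.05, 3 were higher and 4 lower, beside 15.3% and 10.9% of all tested genes. The median log2 fold change was -0.10. *Ndufaf3* at 0.55 and *Ecsit* at 0.44 were the highest, and *Ndufaf4* at -0.46 and *Tmem70* at -0.41 the lowest. After the correction for GC content 0 were higher and 1 lower. Among the 7 subunit genes of mitochondrial DNA, *mt-Nd1*, *mt-Nd4* and *mt-Nd4l* were listed at 0 in all 6 libraries. *mt-Nd2*, *mt-Nd5* and *mt-Nd6* were listed at 0 in all WT libraries and at 16780 to 20130, 7394 to 8068 and 9443 to 10060 FPKM in the KO libraries, so their values are no measure of a change. The zeros of these genes follow the genotype, and the sources used here do not say whether the libraries of both genotypes were quantified in 1 run with the same settings. What a difference in quantification would do to the values of the members was not tested. *mt-Nd3*, expressed in all libraries, was at 8989, 9872 and 10790 FPKM in KO and at 21220, 16780 and 13060 FPKM in WT muscle, without overlap (log2 fold change -0.76, standard error 0.20, limma adjusted p = 0.0879), and after the correction at -0.21.

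The nuclear subunits of the other complexes also had values on both sides of 0. Of 42 genes of complex III, complex IV and ATP synthase, 0 were called and the median log2 fold change was 0.10. At an unadjusted p under 0.05, 12 were higher and 1 lower, beside 15.3% and 10.9% of all tested genes. After the correction 7 were higher and 0 lower, beside 5.72% and 5.47% of all genes of known GC content. Of the 37 complex I members, 10 were higher before and 7 after the correction. The highest were *Cox6b2* of complex IV at 1.65, a gene of 0.503 to 1.28 FPKM in KO and 0 to 0.612 FPKM in WT muscle whose genotypes overlapped, and *Uqcr11* of complex III at 1.24. After the correction they were at 1.31 and 0.67. The lowest were *Cox7b* at -0.36 and *Uqcrb* at -0.35. The 4 genes of complex II had a median of 0.05 and the 76 mitochondrial ribosomal protein genes of -0.02, with 13 higher and 10 lower at an unadjusted p under 0.05. The difference between complex I and these lists was not tested.

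**Figure D5:**
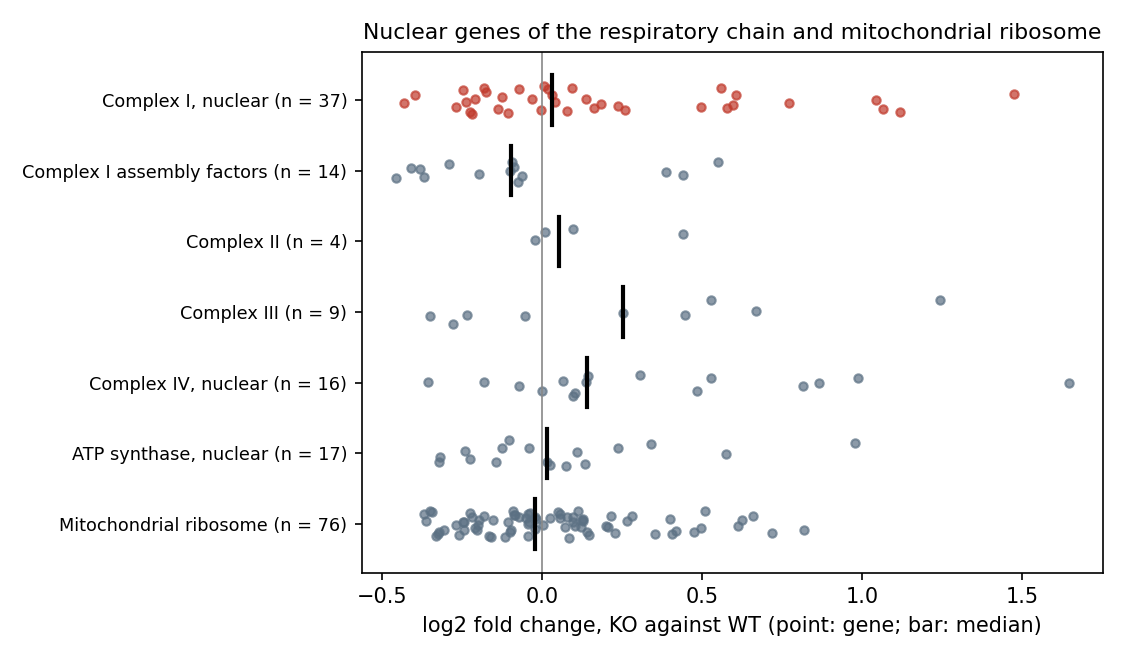
Log2 fold change in KO against WT muscle of the nuclear genes of each respiratory complex, of the complex I assembly factors and of the mitochondrial ribosome, with a point for each gene and a black bar for the median. The medians lie between -0.10 and 0.25, and each of the larger lists has genes on both sides of 0.

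Markers of other cells and fibers differed between the libraries as well. Of 10 tested slow and oxidative fiber markers, all had a log2 fold change above 0 (median 1.49) and 1 was higher at an unadjusted p under 0.05, with a summed level of 1609 to 4566 FPKM in KO and 860.4 to 2827 FPKM in WT muscle. The slow myosin *Myh7* was at 15.2, 50.5 and 77.4 FPKM in KO and at 24.3, 22.1 and 0.0513 FPKM in WT replicates 1, 7 and 8, so WT replicate 8 held almost none. Of 8 adipocyte markers, all were above 0 (median 1.83) and 5 were higher at an unadjusted p under 0.05, with a summed level of 304.6 to 627.1 FPKM in KO and 234.5 to 444.1 FPKM in WT muscle, and *Adipoq* was highest in KO replicate 7 at 40.4 FPKM. Without WT replicate 8, 3 members were called higher (0.834% of all tested genes), namely *Ndufb7*, *Ndufa11* and *Ndufa13*, and with any other single library left out 0 were. Of 6 blood markers, 4 were in the table and 3 were tested, of which 2 were higher at an unadjusted p under 0.05. Their summed level was 112.5 to 228.4 FPKM in KO and 64.9 to 98.2 FPKM in WT muscle, without overlap. The summed levels of the leukocyte, endothelial, fibroblast and Schwann cell markers overlapped between the genotypes, with median log2 fold changes of 0.39, 0.09, 0.30 and 0.09. The part of fiber type, fat or blood in the values of the members was not tested.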

How the data were processed

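RNA-seq of GAS muscles from 3 WT and 3 Kvβ2 KO mice was used, 1 library per mouse. The authors sequenced stranded mRNA libraries with paired reads of 150 bases, mapped them to GRCm38 with TopHat and deposited FPKM from Cufflinks, without counts. Versions and the annotation release are not given in the sources used here. The table held 0 columns of other samples. The members and the gene lists were chosen with earlier results of these data known.

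The unpaired test was limma (version 3.58.1, run under R 4.3.3) with a variance trend and Benjamini-Hochberg adjustment. It used log2(FPKM + 0.1) of all genes averaging 0.5 FPKM or more. The scale understates changes of low genes. The fit was tested on simulated data. Depth was estimated from whole-fragment steps, to which 91.1% to 94.9% of low values fell within 0.15 of a fragment. Among 14983 genes, libraries had at most 1 equal value in common. GC content, coordinates and coding sequences came from GENCODE vM21 on GRCm38, which held all 37 members, and the loess span was 0.3.

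Genes were named by rule: the 7 nuclear core subunits, the 5 largest differences in each direction, called members, *Ndufa4* and *Ndufa4l2*, and at most the 2 highest and 2 lowest of another list. The values of 1 member are not reported here. Any other member was picked after seeing its values or for its shared exons, *Esrra* as a called gene of its list, and *Myh7* and *Adipoq* as defining markers. Same-numbered libraries did not deviate together (correlations -0.03, -0.08 and 0.03), so the numbers were not taken as pairs. Alternatives covered the pseudocount, filters, scaling, variance model, array weights, a replicate block, GC content, length, shared symbols and leaving out each library.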

Additional observations from a re-analysis of the deposited data

How the results depend on the processing

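The count of members higher at an unadjusted p under 0.05 stayed between 7 and 13 in the 23 settings tried. The share of tested genes higher at that threshold differed more, with 15.3% as reported and 5.72% after the GC correction. Calls at an adjusted p under 0.05 were unstable. From 40 genes and 1 member, the calls went to 11 genes with a pseudocount of 1, 20 without the filter, 1 with genes listed at 0 left out, 18 with quantile normalization, 16 when scaled without the mitochondrial genes, 19 without a variance trend, 14 with either GC correction and 12 with the GC correction and the replicate block, with 0 members in each. The replicate block alone gave 13 genes and 0 members. Each replicate number holds 1 KO and 1 WT library, so the block leaves every log2 fold change as it was. It could change no direction, only the standard errors and p-values. Array weights, which ranged from 0.355 for WT replicate 1 to 6.12 for WT replicate 7, gave 3147 genes and 11 members. Leaving out single libraries gave 15 to 126 genes and 0 to 3 members, the highest of both without WT replicate 8. Members lower at an unadjusted p under 0.05, 2 as reported, were 4 with quantile normalization, 6 when scaled without the mitochondrial genes or corrected for length, 1 without a trend or with the GC correction and block, and 0 to 3 with libraries left out. Scaling without the mitochondrial genes moved the median of all tested genes by -0.12 and that of the members from 0.03 to -0.0935. With the GC correction, with or without the block, *Ndufs1* turned to 0.0965 and *Ndufa4* to 0.0948. With GC content from protein-coding transcripts, added after seeing the data, *Ndufs4* turned to 0.0141 and *Ndufa4* to 0.0483. The cause was not tested in any of these. At this depth *Ndufa4l2* rested on an estimated 29 fragments in the library with the fewest.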
